A study of Rattus norvegicus with 2 samples.

Results

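Alcohol and aldehyde dehydrogenases are the enzymes that take alcohols such as ethanol and retinol first to aldehydes and then to acids, with NAD or NADP as the electron acceptor. The liver holds much of the body's capacity for both steps. The same enzymes also clear formaldehyde, fatty aldehydes from membrane lipids and aldehyde intermediates of amino acid and carnitine metabolism. The 10 genes described here were 4 alcohol dehydrogenases (Adh1, Adh4, Adh5 and Adh7) and 6 aldehyde dehydrogenases (Aldh1a1, Aldh1a7, Aldh2, Aldh3a2, Aldh8a1 and Aldh9a1). They were chosen by gene name, with the ratios of these same arrays already known, out of 33719 distinct gene names on the array. The values for them are therefore a description of the diet contrast and carry no test. Each of the 10 had exactly 1 probe of 60 bases, and all 10 probes passed the filter on dim signals that left 18196 genes to be tested. To pass it, a probe had to exceed background clearly on each array in at least 1 diet, the same on both.

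Liver RNA was compared between Wistar rats (spelled Wister in the labels) given feed lacking choline and rats given control feed, in both cases for 10 days. The labels give an age of 7 weeks. Choline is the head group of phosphatidylcholine and, once oxidised to betaine, a methyl donor for homocysteine. The labels name no genotype, sex or transgene and mention 4 choline-deficient rats. Each array carried both diets in different dyes, with the deficient sample labelled by Cy5 first (array 1) and by Cy3 in the dye swap (array 2). Nothing in the labels tells different rats from repeat labelling of 1 pair of extracts. All p-values below therefore rest only on a spread between 2 arrays, which may be technical. That spread was largely pooled over all genes and is hardly the gene's own.

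No spot for a gene was saturated, and between 53.5% and 63.2% of gene spots were well above background per dye and array. All 10 listed hepatocyte markers were measured, among them Alb and Ttr, so the tissue matched its label. Their median log2 ratio of choline-deficient over control was -0.20 (-0.06 on array 1 and -0.27 on array 2). In limma's test 1 of them rose and 2 fell (4.37% and 4.25% of all genes did). The 10 dehydrogenases had a median of -0.23, against 0.00 for all genes tested. The part of hepatocyte content in the ratios below was not tested, and in whole liver RNA fewer cells of a type and less RNA per cell cannot be told apart.

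The probes of Adh1 and Aldh1a7, the most lowered and the most raised of the 10 genes, are shown as deposited with the array, each with that of a relative in the same chromosomal cluster, Adh5 and Aldh1a1. Capitals mark the longest run of letters that a probe shared with any other probe named Adh or Aldh.
Adh1: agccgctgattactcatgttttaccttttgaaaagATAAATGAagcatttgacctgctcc
Adh5: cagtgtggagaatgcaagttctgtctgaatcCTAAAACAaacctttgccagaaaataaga
Aldh1a7, first 30 bases: aatacatacccaagaaGAAAGGGatacatt
Aldh1a1, first 30 bases: gttactcatagaaaacatgtagcttaatcc
The longest shared run was 8 bases for the Adh1, Adh5 and Aldh1a1 probes and 7 for the Aldh1a7 probe (that of Aldh1a1 lies beyond the bases printed), and no run among the 10 probes exceeded 9 bases. These runs compare probes with probes, and binding of a probe to transcripts of a related gene was not searched. On rn4, the genome build of the array's own coordinates, the Adh1 probe lay at chr2:235810168-235810227 on the plus strand. The Aldh1a7 probe lay at chr1:223822773-223822832 on the minus strand, 49.9 kb from the plus-strand Aldh1a1 probe at chr1:223772858-223772917. The Adh5 probe mapped across 3255 bases (chr2:235983786-235987040) and the Aldh2 probe across 1294 bases (chr12:36114847-36116140), so each bridged at least 1 intron. Exon and UTR annotation for rn4 was not used here.

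Aldh1a7 and Adh1 moved far and in opposite directions. Aldh1a7 was 3.60-fold higher and Adh1 2.52-fold lower in choline-deficient liver, while the remaining 8 genes lay between -0.46 and -0.07 on the log2 scale. Of the 10 genes, 9 had a negative mean, 8 were lower on both arrays, 1 was higher on both, and Aldh9a1 had opposite signs. These directions rest on the dye correction: the counts were the same with the deposited log ratio, but with median centring in place of loess 1 gene (Adh1) was lower on both arrays, 1 (Aldh1a7) higher on both, and 8 had opposite signs. Across all genes tested, 27.0% were lower on both arrays and 29.4% higher on both. By size, 1 dehydrogenase was at least 1.5-fold lower and 1 at least 1.5-fold higher on both arrays, against 0.495% and 0.852% of all genes. In limma's test over all genes, 1568 (8.62%) passed in either direction. Since these ratios were known when the genes were chosen, nothing is read from those shares.

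**Figure D1:**
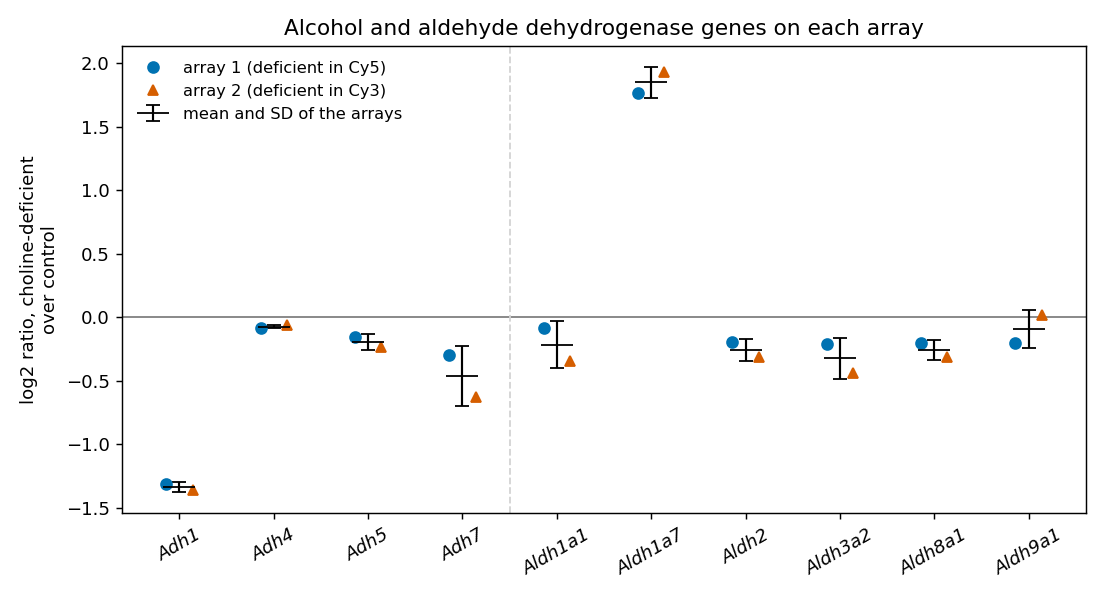
Log2 ratio of choline-deficient over control for the 10 genes, with circles for array 1, triangles for array 2, and a bar with whiskers for the mean and SD of the 2 arrays. Adh1 (-1.33) and Aldh1a7 (1.85) stand apart from the other genes, and only Aldh9a1 has points on both sides of 0.

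Adh1, now named Adh1c, is the class I enzyme and the main ethanol and retinol oxidising alcohol dehydrogenase of the hepatocyte. On array 1 its background-subtracted signal was 1723 in control (Cy3) and 1522 in choline-deficient liver (Cy5). On array 2, with the dyes exchanged, it was 3740 in control (Cy5) and 741 in choline-deficient liver (Cy3). The raw difference was small on array 1 and large on array 2, and Cy5 signals were the brighter ones for most of the 10 probes on both arrays. After loess normalization, which removes a dye difference that depends on intensity, the log2 levels were 11.42 in control and 10.11 in deficient liver on array 1, and 11.38 against 10.02 on array 2. Both choline-deficient values lay more than 1 log2 unit below both control values. The log2 ratios were -1.31 and -1.36, a mean of -1.33 ± 0.04 (SD, n = 2 arrays), which placed Adh1 as the 9th lowest of 18196 genes. With median centring in place of loess, the mean was -1.15 but the arrays spread widely around it (SD 1.28), so that Adh1 was no longer at least 1.5-fold lower on both.

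Adh7 is the class IV enzyme, best known from the stomach and other epithelia, where it oxidises retinol and ethanol. Its signal in liver was dim, at 124 and 145 in control and deficient liver on array 1 and 284 and 110 on array 2, yet above background for both diets on both arrays. Normalized log2 levels were 7.79 against 7.50 on array 1 and 8.15 against 7.52 on array 2, so the diets did not overlap. The log2 ratio was -0.29 and -0.63, a mean of -0.46 ± 0.24 (SD, n = 2 arrays). The deposited log ratio, which has no added offset, gave a mean of -0.92 for this probe, with -0.60 and -1.23 on the arrays. Median centring gave 0.01 and -0.91. Of 8 stomach, pancreas and fat markers on the array, 2 passed the dim filter, the gastric Tff1 (0.01 and -0.37 on the arrays) and the pancreatic Cela1 (-0.07 and -0.01). The gastric genes Gkn1 and Gkn2 did not pass it, and the part of stomach tissue in the Adh7 ratio was not tested.

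Adh5 is the class III enzyme, a glutathione-dependent formaldehyde dehydrogenase and S-nitrosoglutathione reductase present in nearly every cell. Its normalized log2 level was 10.31 in control against 10.15 in deficient liver on array 1, and 10.44 against 10.20 on array 2. The ratio was -0.19 ± 0.06 (SD, n = 2 arrays), small but in the same direction on both, whereas median centring gave 0.86 and -0.89. Adh4, the class II enzyme that takes longer alcohols and ethanol at high concentration, stood at 7.56 against 7.48 on array 1 and 7.82 against 7.76 on array 2. Here the choline-deficient value of array 2 exceeded the control value of array 1, so the diets overlapped across arrays, and the ratio was -0.07 ± 0.02. The deposited log ratio of this dim probe was larger, at -0.31. The 4 alcohol dehydrogenases therefore had ratios from -1.33 to -0.07, with Adh4 and Adh5 at the weak end.

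Aldh1a7 is a cytosolic aldehyde dehydrogenase closely related to Aldh1a1 and known in rat liver as a phenobarbital-inducible form. On array 1 its background-subtracted signal rose from 186 in control (Cy3) to 1720 in deficient liver (Cy5). On array 2 it was 429 in control (Cy5) and 980 in deficient liver (Cy3), so deficient liver was brighter in either dye. Normalized log2 levels were 8.58 against 10.34 on array 1 and 8.44 against 10.38 on array 2. All control values lay well below all choline-deficient values, by more than 1.5 log2 units. The log2 ratios were 1.76 and 1.93, with a mean of 1.85 ± 0.12 (SD, n = 2 arrays), the 5th highest of all genes tested. The deposited log ratio gave 2.34 and 2.15. Aldh1a7 is the 1 gene of the 10 whose accession was not matched in the RefSeq table of assembly GRCr8.

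Another probe on the array, picked after its values were seen, carried an Ensembl transcript identifier (ENSRNOT00000024093) that the array file describes as an A7 member of the Aldh1 family. It is shown because it lies near the Aldh1a7 probe, as a description only.
ENSRNOT00000024093: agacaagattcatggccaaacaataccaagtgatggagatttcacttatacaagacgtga
It mapped across 3302 bases at chr1:223858711-223862012 in rn4, also on the minus strand, and its longest run in common with the Aldh1a7 probe was 5 bases. It was far dimmer, with normalized log2 levels of 7.09 in control against 7.45 in deficient liver on array 1 and 7.06 against 7.42 on array 2. Both arrays thus gave a log2 ratio of 0.36, and the deposited log ratio gave 1.49 and 0.84. Control liver was well above background at this probe on 1 of the arrays. The probe therefore passed the dim filter only through deficient liver, where it was higher, and nothing about Aldh1a7 is read from it.

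Aldh1a1, the cytosolic enzyme that makes retinoic acid from retinaldehyde, lies beside Aldh1a7 and did not share its rise. Its normalized log2 level was 13.16 in control against 13.07 in deficient liver on array 1, and 13.34 against 12.99 on array 2. The ratio was -0.09 on array 1 and -0.34 on array 2, a mean of -0.22 ± 0.18 (SD, n = 2 arrays). Its diets did not overlap across arrays, but the step was small beside that of Aldh1a7, and median centring gave 1.17 and -1.25.

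**Figure D2:**
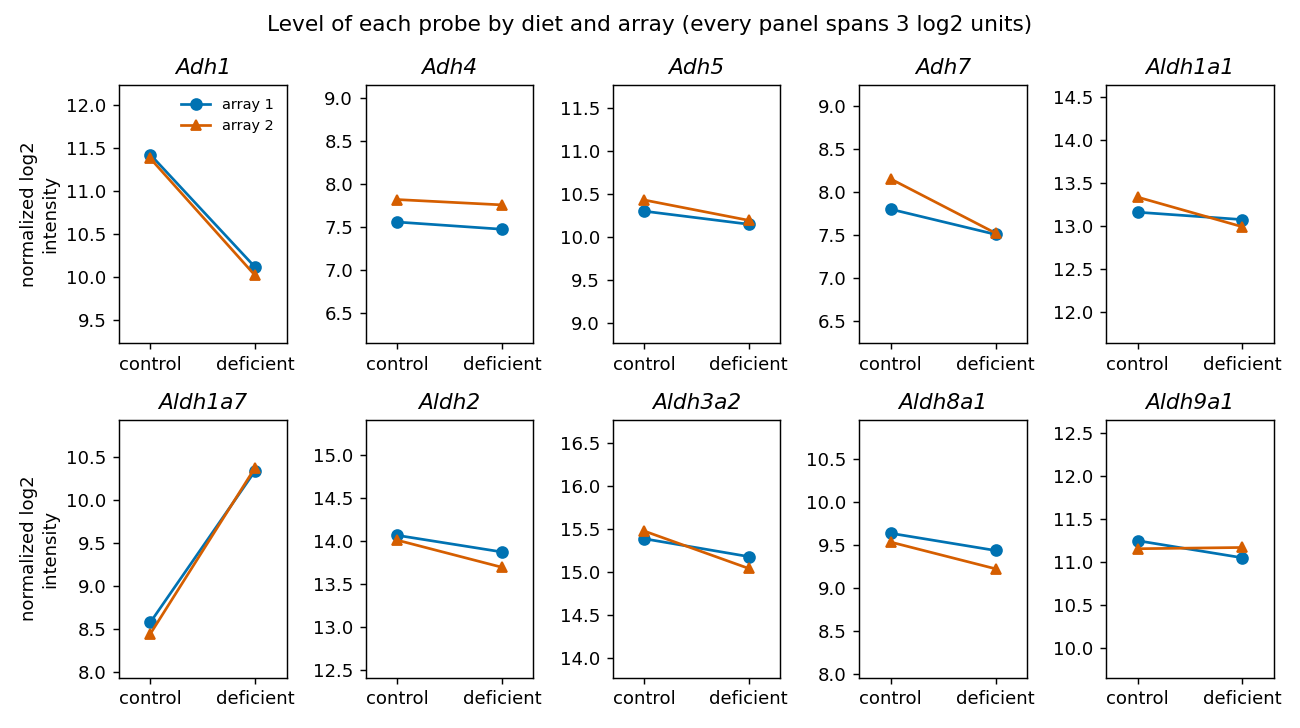
Normalized log2 intensity of each probe in control and choline-deficient liver, with circles for array 1 and triangles for array 2. Every panel spans the same number of log2 units, so slopes can be compared, but heights of different probes cannot. Adh1 falls and Aldh1a7 rises steeply on both arrays, and Aldh9a1 is the panel in which the lines run in opposite directions.

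Aldh2, the mitochondrial enzyme that disposes of acetaldehyde, was at 14.07 in control against 13.88 in deficient liver on array 1 and at 14.01 against 13.70 on array 2. Its ratio was -0.25 ± 0.09 (SD, n = 2 arrays), and the lowest control value exceeded the highest choline-deficient value. Aldh3a2, the microsomal fatty aldehyde dehydrogenase, was at 15.39 against 15.18 and at 15.48 against 15.05. Its ratio of -0.32 ± 0.16 made it the lowest of the 6 aldehyde dehydrogenases, without overlap of the diets. Aldh8a1, which acts on an aldehyde of the kynurenine route of tryptophan breakdown, was at 9.64 against 9.44 and at 9.54 against 9.23, a ratio of -0.26 ± 0.08, again without overlap. For these genes the lack of overlap rests on loess. Median centring gave 1.13 and -1.28 for Aldh2, 1.22 and -1.53 for Aldh3a2 and 0.71 and -0.87 for Aldh8a1. Aldh9a1 oxidises the trimethylated aldehyde that leads to carnitine and has also been linked to betaine aldehyde, the intermediate between choline and betaine. It was at 11.25 in control against 11.05 in deficient liver on array 1 but 11.16 against 11.17 on array 2, so its ratio of -0.09 ± 0.15 had no common direction, and it turned to 0.094 with median centring.

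The 4 alcohol dehydrogenase genes lie in 1 cluster with Adh6 and Adh6a on chromosome 2. In a window from 200 kb before to 400 kb after the Adh7 probe in rn4, 17 of 26 probes were kept, 5 of them named Adh. Adh6, a further alcohol dehydrogenase of less settled substrate, was not among the 10 genes. It fell by 0.44 on the log2 scale (SD 0.03, n = 2 arrays; limma adjusted p = 0.00126) at the probe chr2:235931239-235931298, with -0.42 and -0.46 on the arrays. The deposited log ratio, which has no added offset, gave -1.06 and -1.12 for this probe. A dimmer Adh6 probe that did not pass the filter gave -0.01 and -0.34, and -0.47 and -1.43 as deposited. Adh6a was not above background for either diet. An unnamed transcript inside the cluster (TC617248, named after its values were seen) gave -0.12 and -0.45, and -1.06 and -1.53 as deposited. Its probe was dim and well above background in deficient liver on 1 array, so it passed the filter only through control. Outside the cluster, the 11 kept probes had means from -0.08 to 0.22. Among them the flanking genes were at -0.02 for Mttp, which loads lipid onto apolipoprotein B, 0.22 for the tRNA methyltransferase Trmt10a, 0.11 for the methionine aminopeptidase Metap1 and 0.08 for the cap-binding factor Eif4e. None of these flanking genes passed limma's test. The order along the chromosome was Adh7, Adh1, Adh6, Adh4 and Adh5, with the lowest ratio at Adh1 and the smallest reductions at Adh4 and Adh5.

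**Figure D3:**
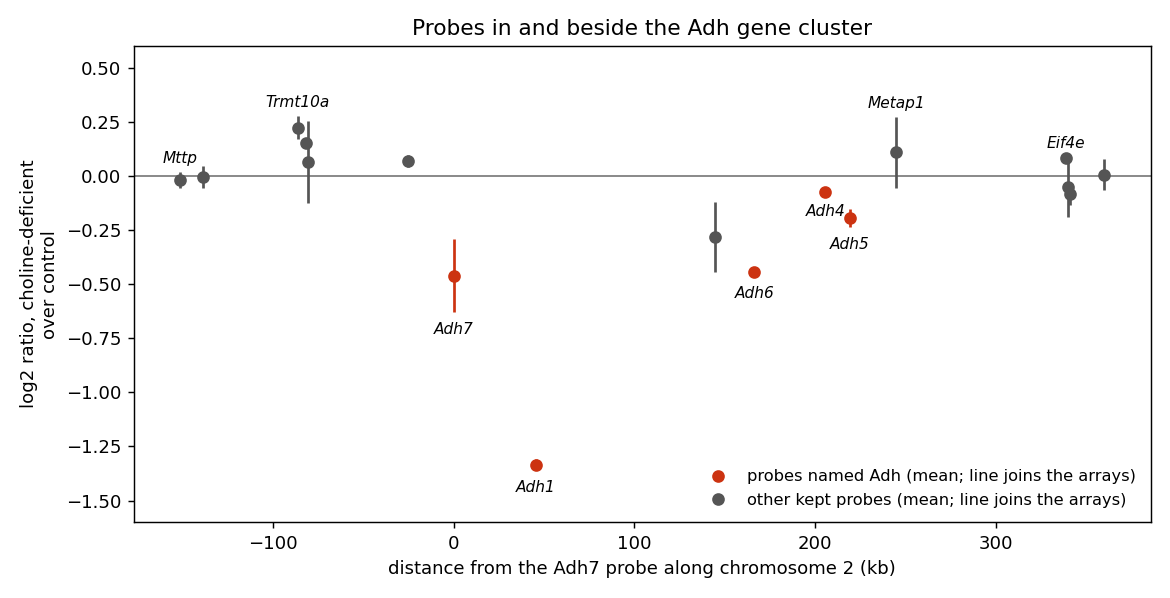
Log2 ratio of choline-deficient over control for every kept probe against its distance in kb from the Adh7 probe, with a point at the mean and a line joining the 2 arrays. Probes named Adh are red and reach from -1.33 to -0.07, while grey probes outside the cluster stay between -0.08 and 0.22.

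The 250 bases upstream of the start are shown for Adh1c, the most reduced gene of the cluster, and for Adh5. Both genes were picked with their ratios known. The sequences come from RefSeq on GRCr8, in which 9 of the 10 genes were matched by accession. Capitals mark the letters CCAAT and GGGCGG, the CCAAT and GC boxes, on either strand; TATAAA was searched too. Adh1c is at chr2:229470453-229470702 and Adh5 at chr2:229648307-229648556, both on the plus strand.
Adh1c: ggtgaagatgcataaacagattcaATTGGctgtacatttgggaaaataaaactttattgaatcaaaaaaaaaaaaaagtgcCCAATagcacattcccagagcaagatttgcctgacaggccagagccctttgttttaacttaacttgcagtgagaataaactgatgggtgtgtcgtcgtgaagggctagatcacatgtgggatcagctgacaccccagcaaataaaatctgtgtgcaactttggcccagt
Adh5: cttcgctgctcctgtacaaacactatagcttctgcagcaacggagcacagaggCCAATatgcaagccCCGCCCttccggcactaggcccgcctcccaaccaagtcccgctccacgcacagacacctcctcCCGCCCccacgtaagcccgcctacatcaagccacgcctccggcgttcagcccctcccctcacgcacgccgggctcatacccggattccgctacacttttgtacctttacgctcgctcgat
Over 300 bases, from 250 before to 50 after the start, Adh1c was 43.3% G or C with 3 CpG pairs, and Adh5 was 63.7% with 28, against a median of 51.7% G or C over 33469 promoters. The GC box letters occurred 2 times in Adh5, 1 time in Adh7 and not in Adh1c, Adh4 or Adh6, and 33.1% of all promoters held them. CCAAT occurred 2 times in Adh1c and 1 time each in Adh5, Adh4 and Adh6, and 37.5% of all promoters held it. TATAAA occurred in Adh4 and Adh6, 1 time each, and in 14.2% of all promoters. A match describes letters and not a bound site, and the part of upstream sequence in the ratios was not tested.

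Adh4 and Adh6 gave ratios of -0.07 and -0.44, and a dimmer Adh6 probe that did not pass the filter gave -0.18. As deposited, the means of these probes were -0.31, -1.09 and -0.95 in the same order. The upstream sequences of these genes were nearly the same. The best ungapped stretch is printed with capitals at the 5 positions that differ, for Adh4 at chr2:229621903-229622084 and for Adh6 at chr2:229576454-229576635 in GRCr8, plus strand.
Adh4: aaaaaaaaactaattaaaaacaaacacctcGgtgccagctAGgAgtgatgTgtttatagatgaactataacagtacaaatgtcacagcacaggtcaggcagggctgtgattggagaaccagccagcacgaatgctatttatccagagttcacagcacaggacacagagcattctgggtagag
Adh6: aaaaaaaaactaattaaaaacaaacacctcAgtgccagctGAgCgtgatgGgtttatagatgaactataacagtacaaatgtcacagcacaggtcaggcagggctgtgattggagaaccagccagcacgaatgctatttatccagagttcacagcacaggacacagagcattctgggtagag
Of 182 positions 177 were identical (97.3%). The probes with ratios of -0.07 and -0.44 were dim too, at mean normalized log2 levels below 8. The difference between the genes was not tested.

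The wider families and pathways were counted in the fit over all genes, in which 795 genes (4.37% of those tested) were higher and 773 (4.25%) lower at a Benjamini-Hochberg adjusted p under 0.05 in limma. With the deposited log ratio or with median centring, limma called none (2122 and 19 genes at an unadjusted p under 0.05). Of 120 genes in 7 lists around the dehydrogenases, 94 were tested, 3 rose, 24 fell and 67 did not pass. The lists were drawn up with earlier results of these arrays known.

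The median of 13 further alcohol and aldehyde dehydrogenases tested was -0.01 (0.00 for all genes). None rose, 4 fell (4.25% of all genes did) and 9 did not pass. Beside Adh6, these were Aldh1l1, the folate enzyme that oxidises 10-formyltetrahydrofolate (-0.56 ± 0.05, SD, n = 2 arrays; limma adjusted p = 3.02e-05), and Aldh6a1, the methylmalonate semialdehyde dehydrogenase of valine breakdown (-0.55 ± 0.03; adjusted p = 4.13e-05). Adhfe1, an iron-type dehydrogenase that oxidises hydroxybutyrate, fell too (-0.49 ± 0.07; adjusted p = 0.000317). The mitochondrial Aldh1b1 stood at 0.30 ± 0.23 without passing. Aldh1a2 and Aldh1a3, the other retinaldehyde dehydrogenases, did not pass the dim filter.

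Of 8 genes for other routes of ethanol, aldehyde and acetate oxidation, 3 fell (4.25% of all genes did) and 5 did not pass. The median of the 8 was -0.17. The aldehyde oxidase Aox1 fell by 0.54 on the log2 scale (SD 0.22), with -0.70 and -0.38 on the arrays. Its relative Aox3 (-0.34 ± 0.31, well above background in deficient liver on 1 array) and catalase, Cat (-0.30 ± 0.19), fell as well. The ethanol-oxidising cytochrome Cyp2e1 was at -0.02 ± 0.08 the acyl-CoA synthetase gene Acss3 at -0.28 ± 0.30 and Aox2 at -0.07 ± 0.10, none of which passed.

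Of 22 retinoid genes tested, 1 rose, 7 fell and 14 did not pass (4.37% of all genes rose and 4.25% fell). The median of the 22 was -0.09. The largest fall was in Hsd17b6, a steroid and retinol oxidising short-chain dehydrogenase (-0.71 ± 0.12; limma adjusted p = 1.65e-07), with -0.80 and -0.63 on the arrays. The retinol dehydrogenases Rdh5 (-0.45 ± 0.06) and Rdh16 (-0.42 ± 0.03) fell too. Cyp26b1, which degrades retinoic acid, was the 1 gene of this list that rose (0.41 ± 0.29), with 0.62 on array 1 and 0.20 on array 2.

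Of 16 aldehyde and carbonyl reductases, 1 rose, 2 fell and 13 did not pass (4.37% of all genes rose and 4.25% fell). The median of the 16 was -0.05. Akr7a3, an aflatoxin aldehyde reductase, was 2.40-fold higher (1.26 ± 0.09, SD, n = 2 arrays; limma adjusted p = 6.07e-16), with 1.19 and 1.33 on the arrays. The xylulose reductase Dcxr (-0.51 ± 0.12) and Akr1c1 (-0.49 ± 0.17) fell. Akr1b8 (0.29 ± 0.17) and Akr1c14 (-0.27 ± 0.32) did not pass.

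Of 17 genes whose reactions feed or follow the 10 dehydrogenases, none rose, 6 fell (4.25% of all genes did) and 11 did not pass. The median of the 17 was -0.19. Bbox1, which completes carnitine from the product of Aldh9a1, was among those that fell (-0.46 ± 0.13). Of 6 genes of the kynurenine route tested, grouped after their values were seen, 3 fell and 3 did not pass. Those that fell were the kynureninase Kynu (-0.45 ± 0.11), the monooxygenase Kmo (-0.39 ± 0.07) and the dioxygenase Haao (-0.38 ± 0.07). Tdo2, the first step of the route, was at -0.14 ± 0.01, Qprt, which leads to NAD, at -0.19 ± 0.27, and Acmsd, which makes the substrate of Aldh8a1, at 0.24 ± 0.01. The choline dehydrogenase Chdh, whose product is betaine aldehyde, was at -0.04 ± 0.19.

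Of 11 transcription factors known to act on Adh or Aldh genes, 1 fell (4.25% of all genes did) and 10 did not pass. Their median was -0.05. The nuclear receptor Nr1i3, which mediates induction by phenobarbital, fell (-0.47 ± 0.03; limma adjusted p = 0.000593). Cebpb (0.23 ± 0.01) and Cebpa (0.22 ± 0.06) did not pass. Of 7 genes listed as neighbours of the Adh cluster, 1 rose, 1 fell and 5 did not pass (4.37% of all genes rose). H2afz, a histone variant gene, rose (0.46 ± 0.08). Lamtor3 fell on average (-1.54 ± 1.89), but its arrays gave -0.20 and -2.88, against -0.24 and 0.15 in the deposited log ratio. Lamtor3 is counted among the 24 listed genes that fell. The median of this list was 0.08.

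**Figure D4:**
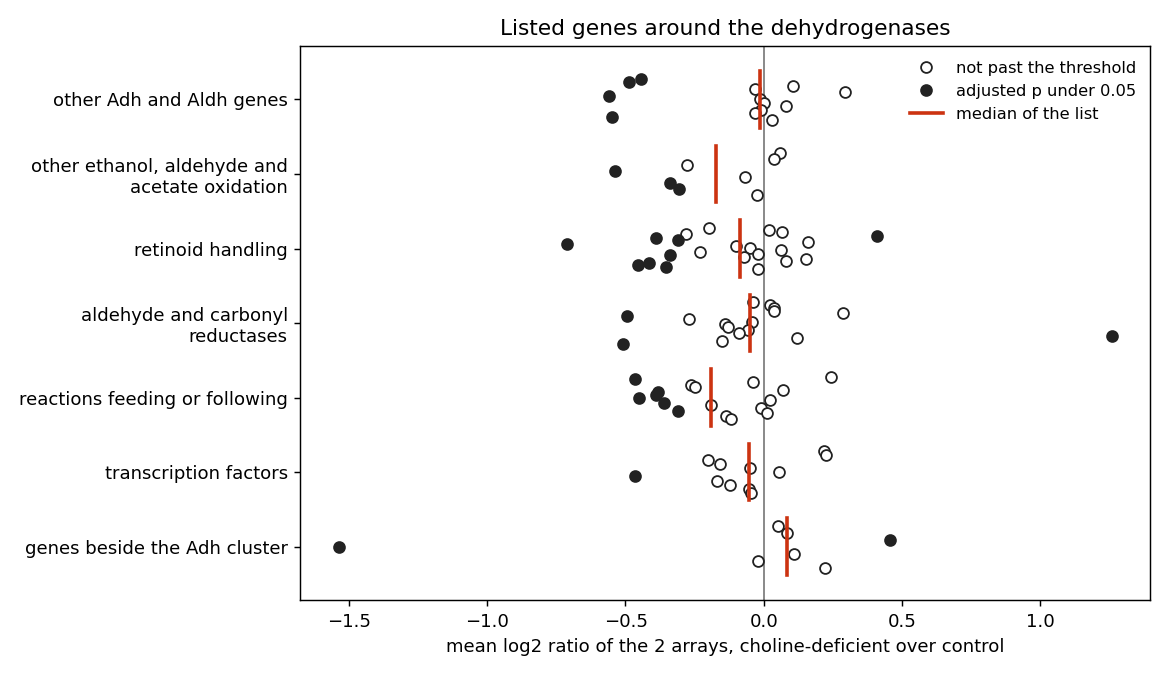
Mean log2 ratio of choline-deficient over control for each tested gene of the 7 lists, filled where the limma adjusted p was under 0.05, with a red bar at the median of the list. Filled points lie mostly left of 0, and Akr7a3 at 1.26 is the rightmost.

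**Figure D5:**
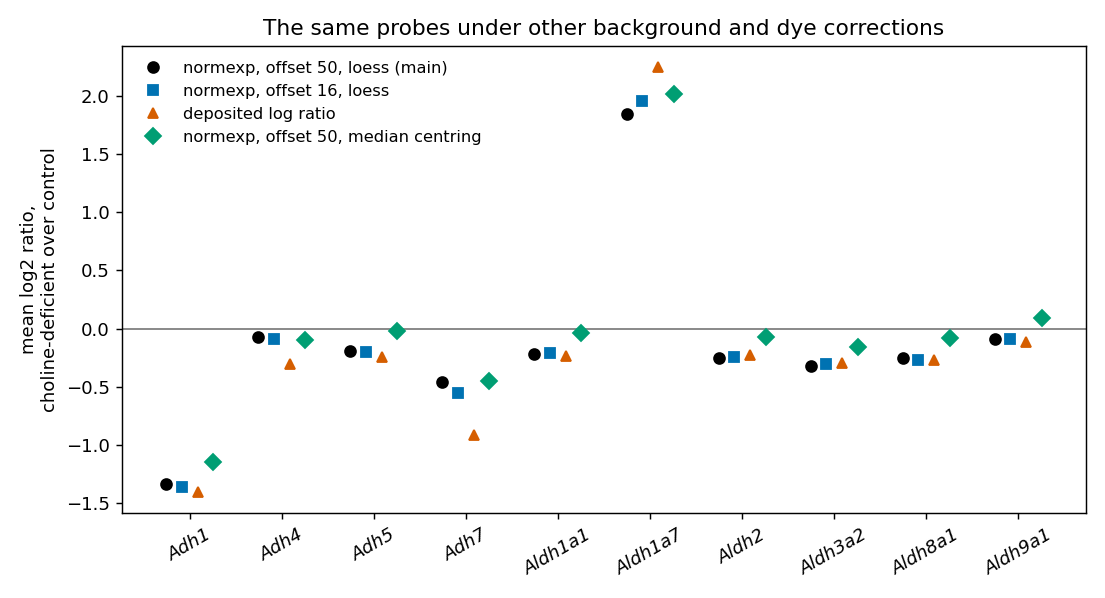
Mean log2 ratio of the 10 genes under 4 combinations of background and dye correction, one symbol for each. Aldh1a7 (1.85 to 2.25) and Adh1 (-1.40 to -1.15) keep their direction in all 4, Adh7 reaches -0.92 with the deposited log ratio, and Aldh9a1 turns to 0.094 with median centring.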

How the data were processed

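The deposited scanner files of the 2 arrays hold raw mean spot and local background intensity values for Cy3 and Cy5, flags, and a log10 value that the authors deposited for each spot, Cy5 divided by Cy3. Per the file headers, Agilent's Feature Extraction software, version 9.5.3.1, read the images (9.5 per the submitters' processing notes). Probe positions are on rn4. The deposited series table held the same log10 ratios (45018 of 45018 rows within 1% on each array). Background was corrected by normexp (limma 3.58.1, R 4.3.3) at an added offset of 50, which draws ratios of dim spots towards 0, and loess-normalized within each array. Spots flagged as outliers were left out, and ratios were turned to choline-deficient over control. Kept probes were flagged well above background for one diet or the other on each array, always the same diet, and a gene stands on its kept probe of highest mean intensity. limma's lmFit and eBayes tested the mean of the 2 arrays against 0 (1 residual and 63.3 prior degrees of freedom, so the spread is largely pooled over genes), two-sided, with Benjamini-Hochberg adjustment over 18196 genes. The test was also run on simulated ratios whose deviations were redrawn from the differences between these 2 arrays. Such a run cannot check the dye correction or whether the arrays share extracts. SDs are over the 2 arrays, whose number limits the precision. Levels by diet are after A-quantile scaling. The median SD among 10 spots of a probe was 0.0612 on array 1 and 0.0515 on array 2.

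The genes and the lists were chosen with earlier results of these data known. The rule for named genes takes all 10 dehydrogenases and, of each list, up to 4 genes with the largest absolute mean log2 ratio among those past an adjusted p of 0.05, and up to 2 more as values where fewer pass. It passes over accession-like names, and genes outside it were chosen after their values were seen. Markers of stellate cells, macrophages, endothelium, cholangiocytes, lymphocytes and erythroid cells had list medians of 0.03, 0.01, -0.13, 0.04, 0.14 and -0.14. In limma's test 4.37% of all genes rose and 4.25% fell, and none did with the deposited log ratio or median centring. In the main fit 2 of 6 stellate markers rose, Col1a1 (0.53) and Col1a2 (0.37), and the other 4 lay between -0.23 and 0.08. Of 7 macrophage markers 1 rose, Marco (0.91), and the other 6 lay between -0.29 and 0.16. Of 4 endothelial markers 1 fell, Kdr (-0.46), and the other 3 lay between -0.21 and 0.04. Gene names are those of the array.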

Additional observations from a re-analysis of the deposited data

How the results depend on the processing

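With the deposited log ratio, limma called 0 genes higher and 0 lower (2122 at an unadjusted p under 0.05), hence 0 and 0 of the listed pathway genes, and 2 dehydrogenases, Adh1 and Adh7, were at least 1.5-fold lower on both arrays. With median centring the counts were again 0 and 0 (19 at an unadjusted p under 0.05) and 0 and 0, 0 dehydrogenases were at least 1.5-fold lower on both arrays, and Aldh9a1 was reversed at 0.094. With 1 array left out there is no test, and from 1 to 2 dehydrogenases were at least 1.5-fold lower on the array left, Adh7 joining Adh1 without array 1. Aldh9a1 was at -0.20 without array 2 and reversed at 0.014 without array 1. Under an offset of 16, no dim filter, the mean over probes, an intensity trend and kept outlier spots, counts of calls stayed within 1.5 times, and Adh1 (-1.40 to -1.15) and Aldh1a7 (1.76 to 2.25) kept their direction under the 5 alternatives that could move them (the offset, the deposited log ratio, median centring and either array alone), since 1 probe stands for each gene. Of the 10 dehydrogenases, 8 had opposite signs on the arrays with median centring, against 1 with loess. Every fit was paired, since each array compares both diets, and no further replicate block could be fitted. The Adh4, Adh6 and Adh7 probes were dim, and their ratios were larger in the deposited values, for which the cause was not tested.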
